A study of Rattus with 9 samples.

Results

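Plasma cells were followed in single-cell RNA profiles of rat bile duct, where 554 of 150379 cells kept met the rule for them. A cell was a member when it held at least 1 UMI (a count of 1 captured RNA molecule) of at least 2 of the 4 markers Jchain, Mzb1, Sdc1 and Derl3, and no UMI of Cd3e (T cells), Csf1r (macrophages), Epcam (epithelium) or Lum (fibroblasts). Only barcodes with more than 400 but fewer than 6000 genes were counted as cells, and mitochondrial genes had to hold less than 25% and hemoglobin genes less than 3% of their UMIs. Members were therefore chosen by the values of these 8 genes, so their values within members are given as description only.

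Plasma cells are the end stage of the B cell lineage and secrete antibody. In becoming one, a B cell expands its endoplasmic reticulum under the transcription factors Irf4, Prdm1 and Xbp1, gives up the B cell program that Pax5 maintains, and depends on survival signals such as those received by Tnfrsf17. Recently formed plasma cells, called plasmablasts, can still divide, whereas long-lived ones do not.

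The series held 9 bile duct samples in 20 droplet libraries. The 3 sham samples were 1 library each. The transplant arm, liver grafts with ischemic injury, had 1 sample each on days 1, 3 and 7 after transplantation. The raised-flow arm had the same graft injury, but the splenic and gastric-duodenal arteries were tied off to raise arterial flow to the graft, and was also sampled on days 1, 3 and 7. A grafted sample combined 3 libraries, or 2 for raised flow on day 3, where another library was not analysed here. The labels give no strain or age, and are silent on whether the libraries within a sample are different rats and on how donors and recipients were paired, so cells of graft and host cannot be told apart.

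Depth and cell yield differed among libraries. Total UMIs ran from 14398295 to 109245177 per library and kept cells from 337 to 13575. Libraries 2 and 3 of transplant day 3 stood apart, with 437 and 337 cells kept of 2923 and 4312 barcodes over 400 genes. At most 1.19% of the kept barcodes of a library recurred in another library, 24 members had a barcode that was also kept elsewhere, and 0 barcodes were members in more than 1 library.

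Most plasma cells came from day 7, and most of those from a single library. Day 7 held 524 of the 554 members (94.6%), 211 in the transplant arm and 313 in the raised-flow arm. Library 1 of raised flow on day 7 alone held 294 members, or 53.1% of all of them, and the 3 libraries with at least 20 members held 492. The remaining 30 members were spread over sham, day 1 and day 3.

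As a share of cells kept, plasma cells were 0.0814%, 0.0201% and 0.00835% in sham samples 1, 2 and 3, which rested on 2, 2 and 1 cells. In the transplant arm, the share was 0 of 13791 cells on day 1, which allows up to 0.0218%, then 0.0368% on day 3 and 0.617% on day 7 (95% exact binomial interval 0.537% to 0.706%). In the raised-flow arm, it was 0.0699% on day 1, 0.0283% on day 3 and 1.12% on day 7 (1.00% to 1.26%). Both day 7 samples lay above all 7 others, while the samples of days 1 and 3 overlapped the sham samples. These intervals and limits cover counting error only. Without the hemoglobin limit, the transplant day 3 share was 0.0817%, or 12 of 14695 cells.

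**Figure D1:**
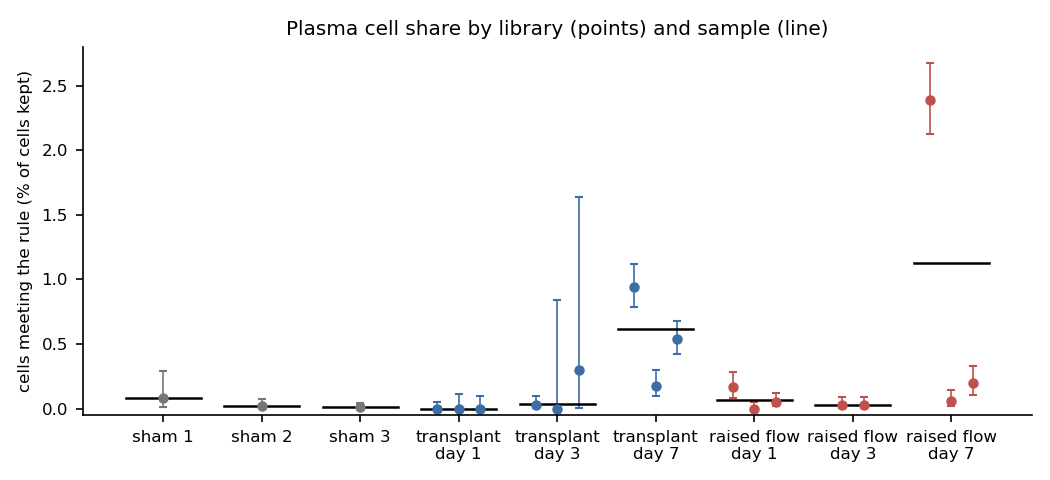
Share of kept cells that met the plasma cell rule, in percent, for each of 20 libraries (points, with exact 95% binomial intervals) and for each of 9 samples (black lines). The day 7 samples stand highest, at 0.617% and 1.12%, but library 1 of raised flow reaches 2.39% while libraries 2 and 3 of that sample stay at 0.0601% and 0.194%.

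Libraries of 1 sample differed more than the samples did. On day 7, the transplant libraries 1, 2 and 3 held 0.942%, 0.177% and 0.538% plasma cells, and the raised-flow libraries 2.39%, 0.0601% and 0.194%. The raised-flow library with the highest share had a 95% interval of 2.13% to 2.67%, which overlapped none of the other 5 day 7 libraries. The higher pooled share of the raised-flow arm therefore rested on that library, and without it the difference over the paired days turned from 0.190 to -0.145 percentage points.

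The grafted samples averaged 0.313 ± 0.461% plasma cells (SD, n = 6) and the sham samples 0.0366 ± 0.0393% (SD, n = 3). The difference of 0.276 percentage points was smaller than the spread among grafts (two-sided exact permutation test, p = 0.393, adjusted p = 0.786 over 9 tests). Day 7 exceeded day 1 by 0.836 points (0.871 ± 0.358% against 0.0350 ± 0.0494%, SD, n = 2 each), with an exact p of 0.333, the smallest that 2 samples against 2 can give. Without library 1 of raised flow day 7 these 2 differences were 0.109 and 0.335 points. Raised flow exceeded transplant by 0.190 points over the paired days (exact p = 0.5, where 0.25 is the smallest possible). When each library was counted as its own sample, day 7 exceeded day 1 by 0.681 points (exact permutation test, 6 libraries against 6, p = 0.00433), a test that treats libraries of 1 sample as independent, which the labels do not establish. In such shares, more plasma cells and fewer other cells in the suspension cannot be told apart.

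B cells, taken as cells with at least 2 of 4 B cell markers (Ms4a1, Cd22 and Pax5 among them), at most 1 of the plasma cell markers and none of the 4 excluded genes, did not keep a constant ratio to plasma cells. On day 7, the transplant sample held 844 B cells and 25 plasma cells per 100 of them, against 455 B cells and 68.8 plasma cells per 100 in the raised-flow sample. The latter ratio rested on library 1, with 294 plasma cells and 306 B cells, since libraries 2 and 3 held 5 and 14 plasma cells beside 6 and 143 B cells. On day 3, when the samples held 88 and 106 B cells, there were 3.41 and 4.72 plasma cells per 100 B cells. Raised flow on day 1 held 75 B cells and 22.7 plasma cells per 100. B cells of the 3 sham samples numbered 3, 2 and 1.

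Jchain and Mzb1, not Sdc1, admitted most members. Jchain encodes the joining chain of polymeric IgM and IgA, Mzb1 a chaperone that helps to assemble antibody, and Sdc1 the surface proteoglycan CD138. Of the 554 members, 331 held Jchain and Mzb1 without Sdc1, 186 held all 3, 26 held Mzb1 and Sdc1, and 11 held Jchain and Sdc1. Derl3 had 0 UMIs in all kept cells and admitted no one. Median UMIs were 12 for Jchain and 113 for Mzb1, so most members lay far above the rule's threshold. At the threshold itself, 41 members held just 2 marker UMIs in all.

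Just outside the rule lay 4846 kept cells with exactly 1 marker, of which 3067 held Sdc1, 1420 Mzb1 and 359 Jchain, and 11 of the 4846 held at least 10 UMIs of Jchain and Mzb1. A further 558 cells met the marker condition but held an excluded gene, Epcam in 306, Csf1r in 154, Cd3e in 145 and Lum in 100, with some holding several, and 181 of the 558 had at least 10 UMIs of Jchain and Mzb1. Neutrophils, which should lack Mzb1, carried an Mzb1 UMI in 0% to 0.614% of cells in 19 libraries and in 5 of 70 (7.14%) in library 1 of raised flow day 7, but only 2 neutrophils in the series held at least 2 of the markers.

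The label was checked on genes the rule did not use. Tnfrsf17, the receptor for the survival factors Tnfsf13 and Tnfsf13b, had a UMI in 52.2% of members, Fkbp11, a prolyl isomerase of the secretory pathway, in 87.4%, Xbp1 in 59.9%, Pou2af1, a B lineage coactivator, in 61.2%, Slamf7 in 50.7% and Prdm1 in 34.8%. The B cell marker Ms4a1 was found in 19.9%, Cd22 in 1.44% and Pax5 in 0% of members. Of the biliary epithelial keratins, Krt19 was found in 1 member, but Krt8 in 65 (11.7%), Krt18 in 49 (8.84%) and Krt7 in 23 (4.15%). Irf4 and Cd79a, also planned for this check, were found in 25.1% and 40.1% of members, and both stood below B cells in level, as given below. Each marker of the label was thus found in only part of the members. Pax5 was absent, while some members held RNA of other cell types.

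The members were not uniform, however. The 468 with at least 10 UMIs of Jchain and Mzb1 carried Tnfrsf17 in 61.1%, Fkbp11 in 96.8% and Siglech, a marker of plasmacytoid dendritic cells, in 0.214%. The 86 below that limit carried Tnfrsf17 in 3.49%, Fkbp11 in 36.0% and Siglech in 23.3%, and their median of 3670 UMIs was below the 12330 of the former. Bank1, a B cell adaptor, was found in 25.6% of the 86 and 3.42% of the 468. The 86 thus went against the label on these genes and are better called cells that met the rule. The name plasma cells is used below for all members, these 86 included. Of the 30 members outside day 7, 15 fell on each side of the limit, and Siglech was found in 6 of the 15 with low counts. Limiting the count to members with at least 10 UMIs left 0.509% and 1.00% of kept cells on day 7, and at most 0.0407% in every other sample. Stricter limits left less on day 7, at 0.196% and 0.409% with at least 3 of the 4 markers and 0.313% and 0.517% with at least 5% immunoglobulin UMIs.

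Features set apart as immunoglobulin took a large part of the summed UMIs of day 7 plasma cells, but not of every member. Ighm, the constant region of IgM, Igh-6, another heavy chain feature whose class the files do not state, Ighg1 (IgG1), Igll1 (a surrogate light chain) and 3 features named only by clone, AABR07060872.1, AABR07034739.1 and AABR07034739.3, were set apart as immunoglobulin. The clone-named features were singled out after their values were seen, and the files do not say which chains they hold. Their share in members is therefore description only. Together the 7 features took 41.0% of the UMIs of transplant day 7 members and 30.9% of those of raised-flow members, against 0.751% and 0.903% in B cells and 0.297% and 0.422% in all other cells. AABR07060872.1 alone took 23.2% of all member UMIs. The named features without the clone-named ones held a median of 5.12% of a member's UMIs in transplant day 7 and 4.13% in raised-flow day 7. In contrast, the 7 features took 0.101% of the UMIs of the sham 3 member and 0.0813% in the 2 members of raised flow day 3 library 2.

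Ighm and Igh-6 were both abundant and were mostly expressed by different cells. Igh-6 made up 56.8%, 0% and 43.1% of the Ighm and Igh-6 UMIs of members in transplant day 7 libraries 1, 2 and 3, and 41.1%, 38.4% and 12.8% in raised-flow day 7 libraries 1, 2 and 3. Among the 451 members with at least 10 UMIs of both features together, whose median was 623, 281 drew at least 90% of them from Ighm, 150 drew at least 90% from Igh-6, and 20 were mixed. Thus 95.6% of these cells were dominated by 1 heavy chain feature. Another 103 members held fewer than 10 such UMIs.

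**Figure D2:**
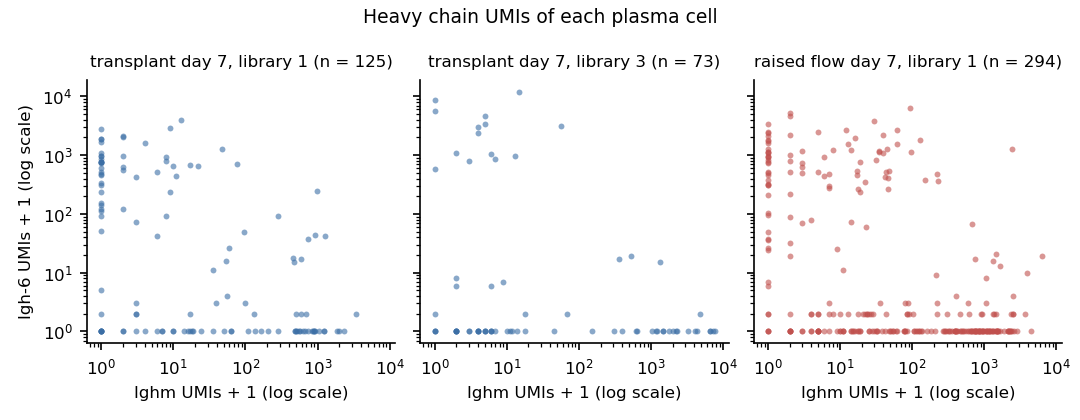
UMIs of Ighm (horizontal) and Igh-6 (vertical) in each plasma cell of the 3 libraries with at least 20 members, each plus 1 and on log scales. Most cells are high for 1 feature and low for the other, with 50 Ighm and 48 Igh-6 cells in transplant library 1, 32 and 14 in transplant library 3, and 168 and 82 in raised-flow library 1.

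Both heavy chain groups recurred in each of the 3 larger libraries, though Igh-6 cells numbered 48 beside 50 Ighm cells in transplant library 1 and 82 beside 168 in raised-flow library 1. Ighg1 was scarce, with 38 UMIs over all members, spread over 31 cells of which none had more than 3, and 0 UMIs in members outside day 7. The planned share of Ighm among named heavy chain constant genes, in which Ighg1 was the sole alternative, was at or just below its ceiling in all 7 samples that had such UMIs, so it could hardly differ between groups. With Igh-6 added to the denominator, the share was 92.9% and 100% in sham samples 1 and 2, 52.5% and 53.1% in transplant on days 3 and 7, and 25.3%, 93.6% and 61.0% in raised flow on days 1, 3 and 7, of which all but the day 7 values rest on at most 17 members. Igll1 had 10 UMIs, all in library 1 of raised flow day 1.

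The clone-named features also divided the cells. Of the 444 members with at least 10 UMIs of AABR07060872.1 and AABR07034739.1 and at least 90% of them from 1, 40 were dominated by AABR07034739.1 (9.01%), and 86 others were mixed. The share was 15.1% in transplant library 1, 12.7% in transplant library 3 and 6.33% in raised-flow library 1. Of the 40 cells, 15 were Ighm cells and 14 were Igh-6 cells, and the other 11 held under 10 heavy chain UMIs, so both heavy chain groups had them.

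Ighm and Igh-6 cells were compared with each other within the 3 larger libraries. Levels are given from here as UMIs per 1000000 UMIs outside the 7 immunoglobulin features, since immunoglobulin would otherwise dilute all other genes in plasma cells. Among 1105 genes at over 100 on that scale, 0 differed over 2-fold, with 50 added to each level, in the same direction in all 3 libraries. This was a comparison of cells within libraries, with no test. By the levels themselves, Crip1 was over 2-fold higher in Ighm cells of transplant library 3 (912 and 269), but 1990 and 1520 in raised-flow library 1. The largest steady difference was Txndc5, an endoplasmic reticulum disulfide isomerase, which without the added 50 was over 2-fold higher in Ighm cells of all 3 libraries, at 1220 in Ighm cells and 426 in Igh-6 cells of transplant library 1, 1530 and 696 in transplant library 3, and 932 and 460 in raised-flow library 1. Jchain was also higher in Ighm cells, at 3520 and 2680, 4180 and 3510, and 3130 and 1910. Cdkn1b, an inhibitor of cell division, went the other way, at 111 in Ighm and 173 in Igh-6 cells, 63.3 and 147, and 78.8 and 134. Mzb1 and Xbp1 differed by at most 0.51 on the log2 scale in any of the 3 libraries.

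For the comparison with other cells, levels sum the cells of a day 7 sample, so each arm gives 1 value, and their exact Poisson intervals cover counting error only. Levels are compared within a gene, between plasma cells, B cells and all other cells of the same sample. Because members were selected on their own transcripts, these contrasts are description and have no test. A gene is called over 2-fold higher when the ratio, after adding 10 to each level, exceeded 2 in both arms. Of 3878 genes with a mean level of at least 20, 613 (15.8%) were over 2-fold higher in plasma cells than in B cells in both arms and 552 (14.2%) were over 2-fold lower.

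The plasma cell program was high as a group. Of the 21 identity genes measured at that level, of 28 listed, 16 (76.2%) were over 2-fold higher than in B cells and 1 was lower. Xbp1, the transcription factor that expands the secretory apparatus, reached 208 (185 to 233) in transplant and 168 (153 to 184) in raised-flow members, against 5.07 and 3.93 in B cells. Tnfrsf17 reached 178 and 205, against 0 and 1.31. Prdm1, the repressor that ends the B cell program, stood at 69.5 and 73.0, against 15.2 and 8.51. Tent5c, a poly(A) polymerase that stabilises secretory mRNA, stood at 300 and 261, against 41.7 and 45.2. In sums over cells, these genes, named from the 16, stood higher in members than in B cells in both arms. They did not mark every member, since Xbp1 was found in 59.9%, Tnfrsf17 in 52.2% and Prdm1 in 34.8%.

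Not every identity gene followed. Irf4, which is required for plasma cell formation, was lower in members (50.2 and 47.0) than in B cells (96.7 and 108), and so were Cd79a and Cd79b, the signalling chains of the B cell receptor, at 72.4 and 89.7 against 273 and 388 for Cd79a, and 510 and 477 against 792 and 915 for Cd79b. Cd79b was nonetheless detected in 78.5% of members. Cd38, a common marker of plasma cells, stood at 1.43 and 2.14, below its 40.2 and 36.7 in B cells. Bhlha15, a regulator of secretory cells, was found in 19.9% of transplant and 12.5% of raised-flow members, at 38 and 17.1.

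**Figure D3:**
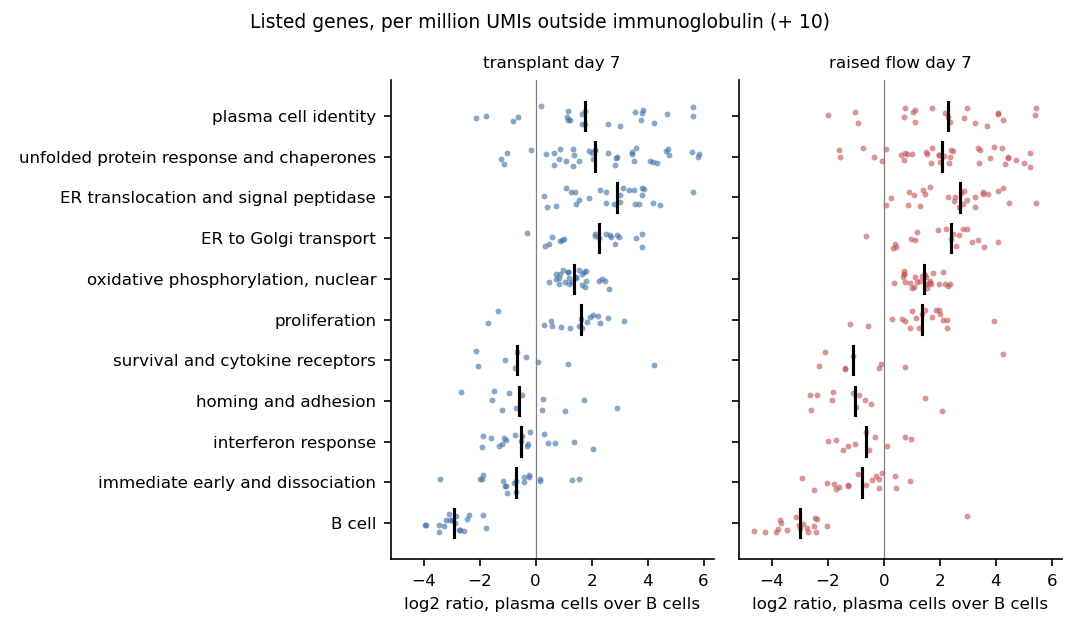
Log2 ratio of the level in plasma cells over that in B cells of the same day 7 sample, 1 point per gene with a mean level of at least 20, by gene list (rows) and arm (panels), with 10 added to each level and black bars at list medians. The secretory lists lie to the right in both arms and the B cell list to the left, apart from Cd52 in raised flow, at 79.4 against 1.31.

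Genes of protein entry into the endoplasmic reticulum were high as a list. Of 26 genes, 22 (84.6%) were over 2-fold higher than in B cells, with median log2 ratios of 2.89 and 2.73. Sec11c, a signal peptidase subunit, was at 2470 and 2050 against 40.6 and 38. Ssr4, part of the translocon-associated complex, was at 5660 and 4220 against 476 and 525, and Sec61b, a subunit of the translocation channel, at 3500 and 3610 against 258 and 302. Srp14 of the signal recognition particle, at 219 and 245 against 162 and 206, was among the 4 genes that were not over 2-fold higher.

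Chaperones and the unfolded protein response were not uniform. Of 36 genes, 26 (72.2%) were over 2-fold higher than in B cells. Hsp90b1, the chaperone that folds antibody and surface receptors, was at 6470 and 5650 against 234 and 254. Pdia4, a disulfide isomerase, was at 1180 and 860 against 11.3 and 13.1, and Creld2 at 1970 and 1820 against 30.8 and 39.3. Several genes of the Atf4 and Ddit3 branch were not higher. Atf4 was at 740 and 568 against 834 and 736, and Ddit3, which promotes death under prolonged stress, at 193 and 97.2 against 470 and 319. Ppp1r15a, which relieves the translation block of this branch, was at 139 and 122 against 319 and 210. Chac1, often grouped with Atf4 targets, was higher, at 122 and 100 against 7.41 and 9.82.

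Transport from the endoplasmic reticulum to the Golgi followed the secretory lists, with 12 of 19 genes (63.2%) over 2-fold higher than in B cells. Lman1, a cargo receptor for glycoproteins, was at 289 and 324 against 11.7 and 9.82, and Kdelr3, which retrieves chaperones, at 81.0 and 96.5 against 2.73 and 1.96. Arf4 (1500 and 1350 against 1180 and 1070) was not.

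Selenoproteins, which carry selenium and are of interest here because the series concerned selenoamino acid metabolism in tuft cells, were not uniform as a list. Of 12 measured, 6 (50.0%) were over 2-fold higher than in B cells and 1 (8.33%) was lower, beside 15.8% and 14.2% of all genes. Selenok, Selenos and Selenom, all located in the endoplasmic reticulum, were at 2210 and 1960 against 246 and 285, at 515 and 493 against 67.5 and 86.4, and at 634 and 478 against 7.41 and 13.1. The antioxidant enzyme Gpx1 was lower, at 234 and 213 against 597 and 539, and Gpx4 was about level, at 153 and 149 against 165 and 161. None of the 12 was past 2-fold between the arms. Only 0.548% of all genes were past 2-fold higher in raised flow and 1.85% lower, so this count does not set selenoproteins apart.

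Respiratory chain genes encoded in the nucleus were also high, with 18 of 26 (69.2%) over 2-fold above B cells and 0 below. Uqcrq of complex III was at 1480 and 1440 against 280 and 274, and Cox5b of complex IV at 1720 and 1900 against 579 and 676. Against all other cells, 6 of 26 were over 2-fold higher, where 8.56% of all genes were over 2-fold higher and 18.7% lower. Of 8 glycolysis genes, 0 were over 2-fold higher or lower than in B cells in both arms. Of 13 amino acid supply genes, 3 (23.1%) were over 2-fold higher than in B cells and 1 (7.69%) was lower. These shares stood beside 15.8% and 14.2% of all genes. Asns, asparagine synthetase, was at 36.5 and 39.2 against 1.95 and 1.31. Its mean level in transplant was below the limit for this count, so it was not among the 13.

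The B cell program was low. Of 23 genes, 18 had a mean level of at least 20 in both arms, and each of the 18 was over 2-fold lower in plasma cells than in B cells. Cd52, a surface glycoprotein that reached that level in raised flow alone, was higher there, at 79.4 against 1.31. Ms4a1 was at 37.3 and 31.7 against 366 and 321, Cd22, an inhibitory receptor, at 3.58 and 0.712 against 199 and 196, and Bach2, a repressor of plasma cell formation, at 2.15 and 2.14 against 77.2 and 97.5. Pax5 had 0 UMIs in members. Ms4a1, Cd22 and Pax5 were among the markers that defined the B cells, so their values are fixed in part by that choice. Class II antigen presentation was reduced but not lost, with Cd74, the invariant chain, at 2810 and 2420 against 9740 and 10000, and RT1-Da at 1010 and 1140 against 11200 and 9460.

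Of 12 homing and adhesion genes, 2 (16.7%) were over 2-fold higher than in B cells and 3 (25%) lower, near the 15.8% and 14.2% of all genes, so the list as a whole did not stand apart. Ccr10, a chemokine receptor of plasma cells that seek mucosal epithelium, was at 91.7 (76.5 to 109) in transplant and 57.7 (49.1 to 67.3) in raised-flow members, against 3.51 and 5.89 in B cells, and was found in 29.9% and 25.6% of members. Within the arms it ranged from 85.0 and 107 in transplant libraries 1 and 3 to 49.8 in raised-flow library 1 and 212 in the 19 members of raised-flow libraries 2 and 3. Cxcr4, which directs plasma cells to bone marrow, was at 187 and 163 against 540 and 895. Cxcr3 was at 9.32 and 23.8, and Ccr9, a gut homing receptor, at 2.15 and 4.27. S1pr1, needed to leave lymphoid tissue, was at 10.7 and 8.90 against 50.7 and 105.

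Of 9 survival and cytokine receptor genes, 1 (11.1%) was over 2-fold higher than in B cells and 3 (33.3%) were lower, beside 15.8% and 14.2% of all genes. Beside Tnfrsf17, the related Tnfrsf13b was at 53.7 and 63.4 against 18.7 and 33.4 in B cells, and Tnfrsf13c, the receptor of mature B cells for Tnfsf13b, at 81.7 and 74.0 against 369 and 350. The anti-apoptotic gene Bcl2l1 was at 23.6 and 16 against 3.51 and 2.62, and Bcl2 at 2.15 and 2.49 against 7.41 and 8.51. Il6st, a signalling chain of the Il6 receptor, was at 4.30 and 3.92, and Cd28 at 3.58 and 7.47.

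Of 11 interferon response genes, 0 were over 2-fold higher than in B cells and 4 were lower, and of 18 immediate early genes, which dissociation can induce, 0 were higher and 7 lower. These are 36.4% and 38.9% lower, beside 14.2% of all genes, and 0% higher in both, beside 15.8%.

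Many plasma cells held transcripts of dividing cells. At least 2 of 9 cell cycle genes, among them Mki67, Top2a and Cdk1, were found in 28.0% of transplant and 41.9% of raised-flow day 7 members, against 2.49% and 4.84% of B cells and 8.29% and 12.2% of all other cells. Among members with at least 10 UMIs of Jchain and Mzb1, the shares were 31.0% and 45.9%. Plasma cells were deeper, with medians of 9806 and 12210 UMIs, so each cell was thinned to 1000 UMIs. The shares were then 4.79% (exact binomial interval 2.32% to 8.62%) and 9.68% (6.63% to 13.5%) in plasma cells, 0.602% (0.196% to 1.40%) and 1.57% (0.633% to 3.21%) in B cells, and 3.2% (3.01% to 3.40%) and 4.57% (4.31% to 4.83%) in other cells. Thinning left out 2 and 3 members, 14 and 9 B cells, and 2497 and 2107 other cells as too shallow. By these pooled shares after thinning, members lay above B cells in both arms and above other cells in raised flow. In transplant they lay within counting error of other cells. The intervals cover counting error only, with 1 sample per arm. Before thinning, members of libraries 1, 2 and 3 stood at 31.2%, 30.8% and 21.9% in transplant and 42.9%, 40.0% and 21.4% in raised flow. Other cells of these libraries stood at 7.95%, 7.28% and 9.18%, and at 11.0%, 17.3% and 8.25%. Raised-flow library 1 held 126 of the 131 cycling members of its sample. The 1000 UMIs included the 7 features set apart as immunoglobulin, which held 41.0% and 30.9% of summed member UMIs against 0.297% and 0.422% in other cells. Thinned members therefore kept fewer UMIs of other genes, and equal depth outside immunoglobulin was not tested.

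In levels, 10 of 17 proliferation genes (58.8%) were over 2-fold higher than in B cells. Mki67 was at 99.6 and 125 against 12.5 and 24.2, and Rrm2, a ribonucleotide reductase subunit, at 100 and 162 against 2.34 and 1.31. Pcna and Mcm3, used in DNA replication, were not higher, at 162 and 248 against 423 and 375 for Pcna and 28.7 and 47.3 against 117 and 122 for Mcm3. Cycling cells were found among both heavy chain groups, in 35.2% of Ighm and 27.4% of Igh-6 cells of transplant day 7 and in 44.4% and 48.8% of those of raised flow, and in 14.6% of all members with under 10 heavy chain UMIs. The cycling share of members was 33.3%, 28.0%, 41.2%, 40.0% and 41.9% in the 5 grafted samples with members and 50.0%, 50.0% and 0% in sham, so that grafts exceeded sham by 3.53 points with an exact permutation p of 0.857 (adjusted p = 1.0). The sham values rested on 2, 2 and 1 cells. The difference turned to -50.5 points with members of at least 10 Jchain and Mzb1 UMIs and to -67.8 with at least 5% immunoglobulin UMIs. At both of these settings sham samples 1 and 2 held 1 cell each and sham sample 3 held 0. Raised flow exceeded transplant by 10.3 points on the days with members in both arms (exact p = 0.5, the smallest 2 days allow). The day 3 values rested on 3 and 5 cells, and with members of at least 10 Jchain and Mzb1 UMIs the difference turned to -0.912 points.

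Day 7 members of the arms were then set side by side. Of 3834 genes with a mean level of at least 20, 21 (0.548%) were past 2-fold higher in raised-flow members and 71 (1.85%) past 2-fold lower. There was 1 sample per arm, so these are counts of values, not of tested genes. Between libraries 1 and 3 of the same transplant sample, 150 (3.91%) and 106 (2.76%) of these genes were past 2-fold. These libraries held 764412 and 512043 UMIs outside immunoglobulin, against 2809620 and 1395384 in the raised-flow and transplant members, and fewer UMIs put more genes past a fold by counting error, so the counts are not comparable. Library 1 of raised flow differed from transplant library 1 by 54 genes higher (1.41%) and 76 lower (1.98%), and from transplant library 3 by 104 (2.71%) and 92 (2.4%). None of 24 identity, 36 unfolded protein response, 26 endoplasmic reticulum entry or 19 Golgi transport genes was past 2-fold between the arms, and their median log2 ratios were -0.10, -0.16, -0.03 and 0.09, beside 0.06 for all 3834 genes.

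**Figure D4:**
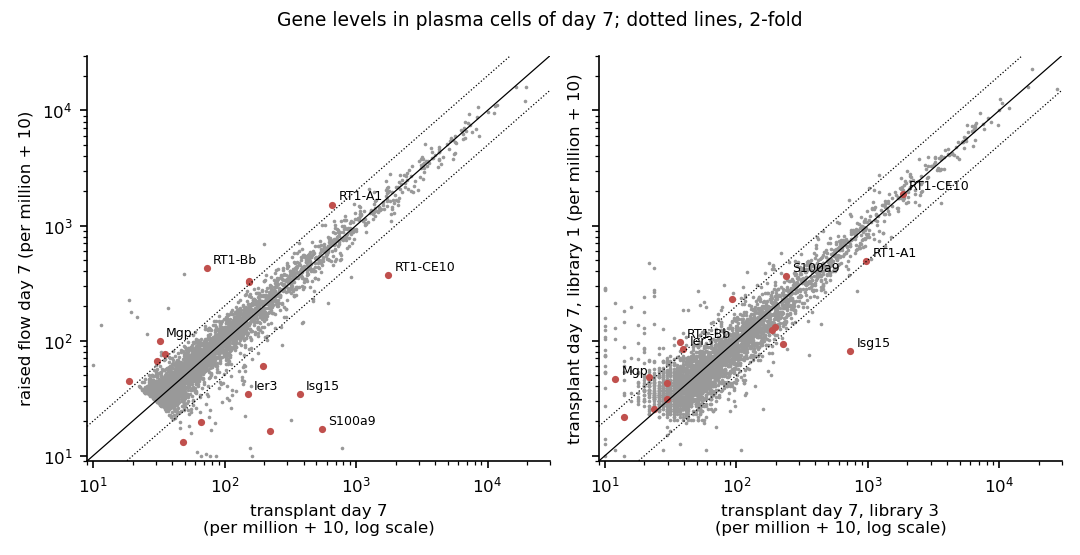
Levels of 3834 genes in day 7 plasma cells, plus 10, on log scales: raised flow against transplant (left) and library 1 against library 3 of the transplant sample (right), with dotted lines at 2-fold and the 16 genes of largest difference between arms in red. Past 2-fold lie 92 genes between arms and 256 between the transplant libraries, whose sums are shallower.

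Some of the genes that differed most between arms are given here, chosen after their values were seen. RT1-Bb, a class II beta chain, was at 420 (396 to 444) in raised flow and 63.1 (50.6 to 77.7) in transplant, and the class I gene RT1-A1 at 1510 and 652. Transplant libraries 1 and 3 differed from each other, at 87.6 and 27.3 for RT1-Bb and at 479 and 965 for RT1-A1. The class I gene RT1-CE10 was lower in raised flow, at 363 against 1750, with 1850 and 1840 in transplant libraries 1 and 3. The same order was seen in all other cells, at 1690 and 524 for RT1-Bb, 2560 and 1520 for RT1-A1, and 985 and 1980 for RT1-CE10. The order was not shared for Mgp, a matrix protein gene, at 88.3 and 22.2 in members but 523 and 886 in all other cells, and Spata48 was at 34.9 and 8.60 in members and 0.455 and 0.122 in other cells. Between transplant libraries 1 and 3, Mgp stood at 36.6 and 1.95, a log2 difference of 1.96 beside 1.61 between the arms, and Spata48 at 11.8 and 3.91. RT1 genes have near-identical copies, so the assignment of their UMIs is uncertain, and the part of strain or donor differences was not tested.

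Interferon genes differed between arms and between libraries. Isg15, a ubiquitin-like interferon product, was at 24.6 in raised flow and 362 in transplant, but at 70.6 in transplant library 1 and 725 in library 3. All other cells had the same order of arms for Isg15, at 284 and 794. Mx1, an antiviral GTPase, was at 14.9 and 67.4, with 15.7 and 150 in the transplant libraries. Of 11 interferon genes, 4 were past 2-fold lower in raised flow and 0 higher, beside 1.85% and 0.548% of all genes. Between transplant libraries 1 and 3, 1 of the 11 was past 2-fold higher in library 1 and 3 were lower. Raised-flow library 1 had 4 of the 11 past 2-fold lower than transplant library 1, and 2 lower than transplant library 3. The neutrophil genes S100a9 and S100a8 were at 7.12 and 6.41 in raised flow and at 540 and 212 in transplant, and in all other cells at 1590 and 560 against 4640 and 1970. S100a9 in transplant libraries 1 and 3, at 353 and 228, was below the sample's 540, so the 13 members of library 2 stood higher. Over 8 neutrophil genes, each with UMIs in members, the sum was 762 in transplant and 14.9 in raised-flow members and 8240 in members outside day 7, against 6890 and 2230 in other cells of day 7. The part of neutrophil RNA in these differences was not tested.

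Markers of some other cell types were lower in day 7 members than in all other cells. Summed levels were 170 and 164 for 10 T cell genes against 1260 and 1230 in all other cells, 659 and 386 against 9410 and 9340 for 11 macrophage genes, 76.0 and 60.2 against 3070 and 4290 for 12 biliary genes, and 88.9 and 39.5 against 3820 and 3980 for 8 fibroblast genes. Each of these 4 lists includes the gene that the rule excluded, and Cd5, Marco, Scgb1c1 and Gpc3 were also at 0 UMIs in all members. For 9 plasmacytoid dendritic genes the sums were 276 and 195 against 338 and 303, and 619 in members outside day 7, so that list was not low. For 8 endothelial genes the sums were 166 and 90 against 255 and 413, and for 8 dendritic genes 30.1 and 21.4 against 52.3 and 61.3, smaller gaps than in the 4 lists above. Of the 554 members, 42 lay above the doublet score limit, which marked the top 7.5% of cells in each library.

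The same genes were then tested in the whole tissue, with samples as the units. Each arm and day had 1 sample, so the fit assumed that the effects of arm and day add. Its error came from the spread among sham samples and from departures of the grafts from that assumption. UMIs of all kept cells were summed per sample and fitted with edgeR's quasi-likelihood test across 16665 genes, with sham, day 1, day 3 and day 7 as levels and raised flow as an added term. Between day 7 and day 1, 429 genes rose (2.57%) and 151 fell (0.906%) at an adjusted p under 0.05. Of the 28 plasma cell identity genes, 7 rose and 0 fell, with a median log2 difference of 1.16 beside -0.04 over all genes. In such sums, fewer cells of a type and less RNA per cell cannot be told apart.

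Jchain, Mzb1 and Ighm had high values on day 7 but did not pass this test, and Sdc1 was not high. Jchain stood at 42.2 and 66.9 UMIs per 1000000 in the transplant and raised-flow samples of day 7, against 0.394 and 1.55 on day 1, 2.86 and 1.16 on day 3, and 13.6, 1.13 and 0.854 in sham. Mzb1 stood at 235 and 438, against 0.331 and 5.28, 5.52 and 5.91, and 25.5, 0.985 and 0.556. Ighm stood at 984 and 1490, against 7.42 and 28.5, 51.9 and 76.1, and 242, 16.8 and 21.2. Sdc1 stood at 80.3 and 63 on day 7, against 177 and 73.2 on day 1, 112 and 53.6 on day 3, and 91.6, 63.6 and 70.9 in sham (log2 difference from day 1 -0.76 ± 0.228, SE, edgeR adjusted p = 0.115). Day 7 overlapped no other sample for Jchain, Mzb1 or Ighm. Jchain and Mzb1 are markers of the rule, so their sums are not separate from the share of members. How many of all genes had such a gap was not counted, so it has no background here. Sham sample 1, from the sham library with the fewest cells, stood above the other sham samples. Adjusted p-values for day 7 against day 1 (edgeR) were 0.0943 for Jchain (log2 difference 5.79 ± 1.56, SE), 0.119 for Mzb1 (7.37 ± 2.23), 0.0722 for Ighm (6.24 ± 1.47) and 0.135 for Tnfrsf17 (5.31 ± 1.71).

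**Figure D5:**
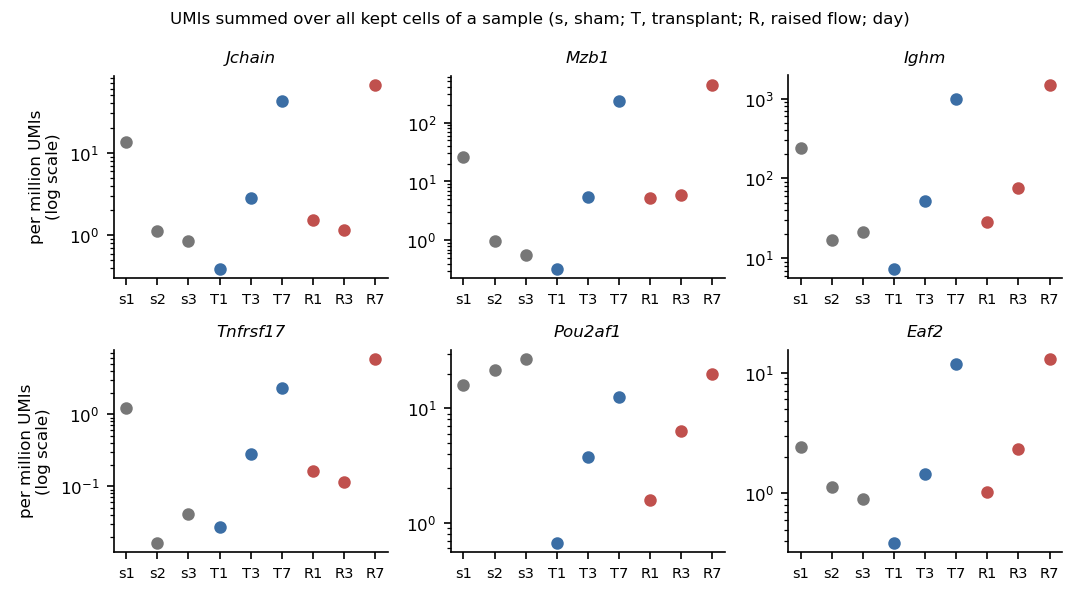
UMIs per 1000000 of 6 plasma cell genes in the summed kept cells of each of 9 samples, on log scales (s1 to s3, sham; T and R, transplant and raised flow, with the day). Jchain, Mzb1, Ighm, Tnfrsf17 and Eaf2 are highest in both day 7 samples, whereas Pou2af1 is as high in sham (16.1 to 26.9) as on day 7 (12.6 and 19.9).

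Of the 28 identity genes, 7 also rose from day 1 to day 7 in the sums without plasma cells. With all kept cells, Pou2af1 rose by 3.86 on the log2 scale (SE 0.394, edgeR adjusted p = 0.0203), Eaf2, expressed in differentiating B cells, by 4.19 (SE 0.526, adjusted p = 0.0269) and Irf4 by 3.40 (SE 0.448, adjusted p = 0.0288). Tent5c, Slamf7, Glcci1 and Ell2 rose by 2.97, 2.23, 1.76 and 1.61. With plasma cells left out of the sums, 7 identity genes were called beside 2.51% of all genes higher and 0.891% lower. With all kept cells, the count of 7 was 4 without library 1 of raised flow day 7, and 0 without sham sample 2, sham sample 3 or any 1 sample of day 1 or day 7. Without members, Jchain still stood at 15.3 and 20.5 on day 7 and Mzb1 at 71.9 and 149, in sums that include the 558 cells barred by an excluded gene. Empty barcodes of the day 7 libraries held 2.70 to 56.1 of Jchain and 11.1 to 805 of Mzb1 on this scale, a range that spans these values, and the part of free RNA was not tested. In the same fit without plasma cells, 7 of 10 T cell genes (median log2 difference 3.55), 5 of 8 NK and cytotoxic genes (4.41) and 9 of 25 interferon response genes (1.63) rose as well, and the part of these cells in the identity genes was not tested.

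Of 23 B cell genes, 14 rose between day 1 and day 7, and of 16 genes for factors that attract or sustain plasma cells, 2 rose and 0 fell, beside 2.57% and 0.906% of all genes. In this contrast 259 genes were called instead of 580 without library 1 of raised flow day 7, and 0 without sham sample 2, sham sample 3 or any 1 sample of day 1 or day 7. The 2 were Cxcl9, a chemokine for cells with Cxcr3 (3.77 and 4.39 on day 1, 233 and 505 on day 7, edgeR adjusted p = 0.0474), and Il21, the T cell cytokine that drives plasma cell formation (0 and 0.0455, then 1.32 and 1.21, edgeR adjusted p = 0.0359). On day 3, Cxcl9 stood at 85.5 and 840 and Il21 at 0.575 and 1.31, so in raised flow both were higher on day 3 than on day 7. Ccr10 rose as well, from 0.627 and 0.897 to 3.75 and 3.88 (adjusted p = 0.0294, edgeR). The survival factors Tnfsf13b (log2 difference 0.56, adjusted p = 0.473), Tnfsf13 (0.49, adjusted p = 0.474) and Il6 (-1.08, adjusted p = 0.46) did not pass.

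Between grafts and sham, 1568 genes rose (9.41%) and 1462 fell (8.77%). Of the 28 identity genes, 8 rose, with Cd79b at 3.02 and Irf4 at 1.91 on the log2 scale (adjusted p = 0.0237 and 0.0177), and 2 fell, Pou2af1 by 2.04 and Creb3l2 by 0.91 (adjusted p = 0.0108 and 0.0238). In the same contrast 16 of 23 B cell genes, 8 of 10 T cell genes, 5 of 8 NK and cytotoxic genes and 6 of 8 neutrophil genes rose, with median log2 differences of 1.27, 2.33, 2.50 and 4.84 beside 0.70 for the identity genes, and their part in the identity genes was not tested. With members left out, 9.34% of genes rose and 8.77% fell, and 10 identity genes were called, but the median of the identity genes was 0.43 beside 0.70 with all kept cells. Jchain and Mzb1 were not called (edgeR adjusted p = 0.778 and 0.469). Cxcl12, the ligand of Cxcr4, fell by 1.80 (adjusted p = 0.0282), with 201 to 262 UMIs per 1000000 in sham and 26.9 to 149 in grafts, beside a median of -1.85 for 8 fibroblast genes, of which 2 fell, and -0.81 for 8 endothelial genes, and Cxcl13, which attracts B cells, rose by 2.97 (adjusted p = 0.0219). Between raised flow and transplant, 0 genes were called by edgeR, with 628 at an unadjusted p under 0.05 and 48 called by DESeq2. For grafts against sham, 0 genes were called without sham sample 2 or 3, 274 without transplant day 7 and 418 without raised flow day 7.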

How the data were processed

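Bile duct tissue was dissociated with collagenase and dispase, depleted of red and dead cells, and profiled with 10x Genomics 3′ libraries. The deposited matrices hold UMI counts of 23999 features per barcode, which the authors made with Cell Ranger (5.0.1 in the submitters' notes, which also list Seurat 3.2.0; the matrix headers name version 4). The genome build is not given in the sources used here. Matrices include empty barcodes, so cells were filtered as stated in the report.

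The members and gene lists were chosen with earlier results of these data known. The planned rule named the called genes of largest change whose samples did not overlap and up to 4 called genes per list. It applied to tests within members, which could not be fitted, so genes were named from the lists, or from those of largest difference between arms, after their values were seen. Shares were compared over the 9 samples by two-sided exact permutation tests with Benjamini-Hochberg adjustment over 9 tests. Those gene tests needed samples with at least 20 members, which 2 samples had. Tissue sums were therefore fitted, after the data were seen, with edgeR 4.0.16 (R 4.3.3; TMM, filterByExpr, glmQLFit, glmQLFTest) and DESeq2 1.42.0 as an alternative. No sample was dropped or imputed. On simulated counts for day 7 against day 1 (16270 genes, 200 changed), 36% of 4-fold and 89% of 16-fold changes were called and 5.3% of calls were false. Apart from those changes, simulated samples shared the same gene proportions, so these rates need not hold for the real data. Doublets were scored by simulated pairs and kept in the main analysis. P-values of the permutation tests rest on the spread among samples. Those of the tissue fits rest on the spread among sham samples and on departures of the grafts from additive arm and day effects. Either spread may be partly technical. Python 3.11.15, numpy 2.4.6, pandas 2.3.3, scipy 1.17.1 and matplotlib 3.10.9 were used. Some genes of the lists are not reported here.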

Additional observations from a re-analysis of the deposited data

Results flagged for a closer look

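Barcodes with at most 100 UMIs, which are taken as empty droplets, carried plasma cell transcripts on day 7 above their level in sham libraries. Ighm reached 2670 UMIs per 1000000 in library 1 of raised flow day 7 and was at least 111 in the 6 day 7 libraries, against at most 36.9 in sham. Mzb1 reached 805 and was at least 11.1, against at most 3.56, and Jchain reached 56.1 and was at least 2.70, against at most 0.838. Libraries of days 1 and 3 also exceeded sham: Ighm, Mzb1 and Jchain were at 190, 20.5 and 4.36 in library 3 of transplant day 3, and Ighm and Mzb1 at 89.5 and 14.9 in library 2 of transplant day 1, which held 0 plasma cells, so the lowest day 7 library was not above all of these. The library with the highest values was also the one with the most plasma cells. In transplant day 3, 9 barcodes met the marker rule but exceeded the hemoglobin limit, beside the 3 members of that sample. The empty barcodes entered no test of the report, and the 9 barcodes entered only the alternative without the hemoglobin limit.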

How the results depend on the processing

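The planned gene tests within plasma cells, their interaction with other cells and their alternatives were not run, because 2 of 9 samples held at least 20 members. The alternatives for members with at least 10 Jchain and Mzb1 UMIs, for leaving out library 1 of raised flow day 7, for counting Igh-6 and for unpaired days, and all tissue fits, were chosen after seeing the data.

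Shares, in percentage points. Plasma cells, raised flow minus transplant, turned from 0.190 to -0.145 without library 1 of raised flow day 7. Day 7 minus day 1 was 0.681 with each library as its own sample. Its exact permutation p under 0.05 treats libraries of 1 sample as independent, which the labels do not establish. Leaving out single samples gave 0.215 to 0.339 for grafts minus sham except 0.114 without raised flow day 7, 0.582 to 1.09 for day 7 minus day 1, and 0.0307 to 0.289 between arms. The Ighm share with Igh-6 in the denominator gave -39.4 for grafts minus sham, 31.7 for day 7 minus day 1 and 24.5 between arms. Its value between arms (-0.00113) also turned sign with 3 markers (0.0011), with libraries as samples (0.00322), without library 1 of raised flow day 7 (0.00681) and with no replicate block (0.00152), all changes of under 0.01 points. Without the replicate block (days not paired), plasma cell and cycling shares differed by 0.190 and 10.4 points between arms, beside 0.190 and 10.3 paired, and no call changed. The cycling share, grafts minus sham, turned to -67.8 with at least 5% immunoglobulin UMIs. It turned to -50.5 with at least 10 Jchain and Mzb1 UMIs (unadjusted exact permutation p = 0.0476, 2 sham samples left). At both settings sham samples 1 and 2 held 1 member each, so each sham share of 100% was 1 cell. This cycling difference ranged from -13.1 to 11.9 when single samples were left out. Day 7 minus day 1 turned to 7.13 after thinning and ranged from -13.2 to 0.677 when single samples were left out, and the arms turned to -0.912 with at least 10 UMIs.

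Genes called in the tissue. Grafts minus sham gave 3030 genes, 5469 with DESeq2, and 0 to 4328 without single samples, the 0 without sham 2 or 3. Day 7 minus day 1 gave 580, 373 without TMM, 2895 with DESeq2, 259 without library 1 of raised flow day 7, and 0 to 1886 without single samples, the 0 without sham 2 or 3 or any day 1 or day 7 sample. Arms gave 0, and 48 with DESeq2. Identity genes called were 10 for grafts minus sham (6 without that library, 0 to 16 without single samples) and 7 for day 7 minus day 1 (15 with DESeq2, 4 without that library, 0 to 14 without single samples). Where samples were left out, the fit had fewer samples. The causes of the other shifts were not tested. Samples other than day 7 held few members, so each member is a large part of a share of members there. Members outside day 7 had a median of 8046 UMIs against 11300 on day 7, and the part of depth was not tested.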
